A study of Mus musculus with 6 samples.

Results

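The miR-15/16 family is a group of microRNAs (miRNAs) that share the seed AGCAGCA, the stretch from base 2 to base 8 through which a miRNA pairs with its messenger RNA targets. It was followed here in exosomes, small vesicles shed by cells, collected from the supernatant of bone marrow-derived macrophages. The members were chosen by name in the count table: mmu-miR-16-5p, mmu-miR-15b-5p, mmu-miR-15a-5p, mmu-miR-322-5p and mmu-miR-497a-5p carry the seed, mmu-miR-15b-3p comes from the opposite arm of the miR-15b hairpin, and mmu-miR-351-5p is encoded near miR-322. The prefix mmu marks mouse and is left out below. All 7 members were among the 707 miRNAs of the table. The tested samples were 3 libraries from mice of the Roquin-1 san:san genotype, in which both copies of the Roquin-1 gene carry the sanroque (san) allele, and the controls were 3 wild-type (WT) libraries. Both genotypes were on the C57BL/6 strain. The labels give no age, sex, culture condition or stimulus, and do not say whether the 3 samples of a genotype came from separate mice or cultures. The p-values therefore rest on the spread among these libraries, part of which may be technical.

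Members of this family repress cyclins, cyclin-dependent kinases and the survival factor BCL2, and are known as brakes on the cell cycle, and the locus of miR-15a and miR-16-1 is often deleted in human chronic lymphocytic leukaemia. miR-16 is abundant in most tissues, in blood and in red cells, and is often used as a reference in PCR assays of miRNAs. miR-322, the mouse counterpart of human miR-424, is produced from an X-linked cluster with miR-503, miR-351, miR-542 and the miR-450 miRNAs and is known from muscle and myeloid differentiation. Roquin-1 binds messenger RNAs that carry a stem-loop element and destabilises them, and mice with the san allele develop autoimmunity.

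The sequences below are shown because they say which members can bind the same targets and how well reads of one can be told from reads of another. They are the mature sequences of RefSeq (GRCm38.p6), written 5′ to 3′ with bases 2 to 8 in capitals.
miR-16-5p: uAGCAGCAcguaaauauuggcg
miR-15b-5p: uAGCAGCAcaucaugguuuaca
miR-15a-5p: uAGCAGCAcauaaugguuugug
miR-322-5p: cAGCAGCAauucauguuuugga
miR-497a-5p: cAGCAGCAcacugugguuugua
miR-195a-5p: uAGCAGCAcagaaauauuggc
miR-15b-3p: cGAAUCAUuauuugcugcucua
miR-351-5p: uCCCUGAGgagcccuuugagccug

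The capitals are identical in the first 6 lines and differ in miR-15b-3p and miR-351-5p, so the members fall into 3 seed groups. The seed of miR-351-5p is that of miR-125a-5p and miR-125b-5p. Of 10 RefSeq mouse miRNAs with the seed of miR-16-5p, 6 had a row in the table, and the only one that is not a member was miR-195a-5p. Outside the seed the full-length sequences of the members differed. Compared position by position from the 5′ end, miR-15a-5p and miR-15b-5p differed at 4 of 22 positions (C12A, A20G, C21U and A22G, with the base of miR-15b-5p first). miR-16-5p differed from miR-15a-5p at 6 positions and from miR-497a-5p at 11. The closest pair was miR-16-5p and miR-195a-5p, with 2 differences in 21 positions (G10A and U11G, with the base of miR-16-5p first). No other row of the table had the same counts as a member in all libraries.

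The members come from 4 places in the genome, given here by RefSeq positions on GRCm38.p6, which is a later build than the mm9 named in the submitters' processing notes. miR-15b-5p (chr3:69009775-69009796) and miR-15b-3p (chr3:69009813-69009834) lie 5′ of one copy of miR-16-5p (chr3:69009918-69009939) on the plus strand, in an intron of Smc4 in the GENCODE annotation of GRCm38. Smc4 encodes a condensin subunit. miR-15a-5p (chr14:61632075-61632096) and the other copy of miR-16-5p (chr14:61631936-61631957) lie on the minus strand, and that copy overlaps the long non-coding RNA gene Dleu2. Both copies give the same mature miR-16-5p, so its counts cannot be assigned to a locus. miR-497a-5p (chr11:70234730-70234751) lies on the plus strand, 5′ of miR-195a-5p. miR-322-5p (chrX:53054306-53054327) and miR-351-5p (chrX:53053315-53053338) lie on the minus strand of the X chromosome, with 930 bases between miR-322-3p and miR-351-5p. The hairpin of miR-503 lies within that stretch.

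The libraries held 185901, 160588 and 126098 miRNA counts in san:san and 12447, 28884 and 21754 in WT. Levels are given as CPM, counts brought to the same fixed total in each library, and scaled by TMM, a factor that corrects for library composition. A single count was worth 6.31 to 10.2 CPM in san:san and 27.8 to 69.5 CPM in WT. The 7 macrophage and myeloid markers were miR-223-3p, both miR-142a arms, miR-146a-5p, miR-155-5p, miR-21a-5p and miR-342-3p. All were detected in every library and held 10.4% to 12% of san:san counts and 5.23% to 6.19% of WT counts. In san:san miR-142a-3p held the most of these counts, with 8260, 8290 and 8826. miR-146a-5p did not pass (log2 0.26, edgeR adjusted p = 0.363), and miR-155-5p was too low to test. The 5 erythroid markers were also detected in every library. The rows of miR-486a-5p and miR-486b-5p among them hold the same counts, and with these counted once the list held 10.3% to 11.9% in san:san and 2.68% to 4.59% in WT. The lymphocyte marker miR-150-5p held 1.38% to 1.92% in san:san and 0.409% to 0.492% in WT. The endothelial pair of miR-126a arms held 3.37% to 6.96% in san:san and 1.82% to 3.69% in WT, the 6 stromal markers, with the identical rows of miR-199a-3p and miR-199b-3p counted once, 0.741% to 0.833% in san:san and 0.844% to 1.32% in WT, and miR-122-5p with miR-192-5p, from liver, 0.494% to 0.661% in san:san and 0.561% to 0.755% in WT. Rows of some lists did not move together. At an edgeR adjusted p under 0.05, 5 of 6 tested macrophage and myeloid rows were higher in san:san. So were 4 of 5 erythroid rows, the lymphocyte row and 2 of 2 endothelial rows. Of 6 stromal rows 1 was higher and 1 lower, and of 2 liver rows 1 was higher. Among all 254 tested miRNAs 34.6% were higher and 29.5% lower. Whether the marker shares have a part in the results on the family was not tested. In bulk exosome RNA a change in the number of vesicles of a kind and a change in the miRNA content per vesicle cannot be told apart.

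miR-16-5p, the most abundant of the seed-sharing members, was higher in san:san exosomes, and so were both arms of miR-15b and miR-322-5p. miR-351-5p was lower in san:san. miR-15a-5p did not pass the test, and miR-497a-5p was not tested because it missed the filter on low counts. Of the 6 members tested by quasi-likelihood in edgeR, 4 were higher with an adjusted p under 0.05 and 1 was lower. Across all 254 miRNAs tested 34.6% were higher and 29.5% lower, so changes of this kind were common in these libraries. miR-351-5p passed the filter on low counts (at least 129 CPM by total counts in 3 libraries) through the WT libraries alone. All its san:san values were under that cutoff, so a row that enters in this way is already lower in san:san by total counts. The tested members had a median log2 fold change of 0.95, beside 0.30 for all tested miRNAs. With total counts in place of TMM, 2 members were higher and 1 lower, where 19.3% of the tested miRNAs were higher and 39.8% lower.

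**Figure D1:**
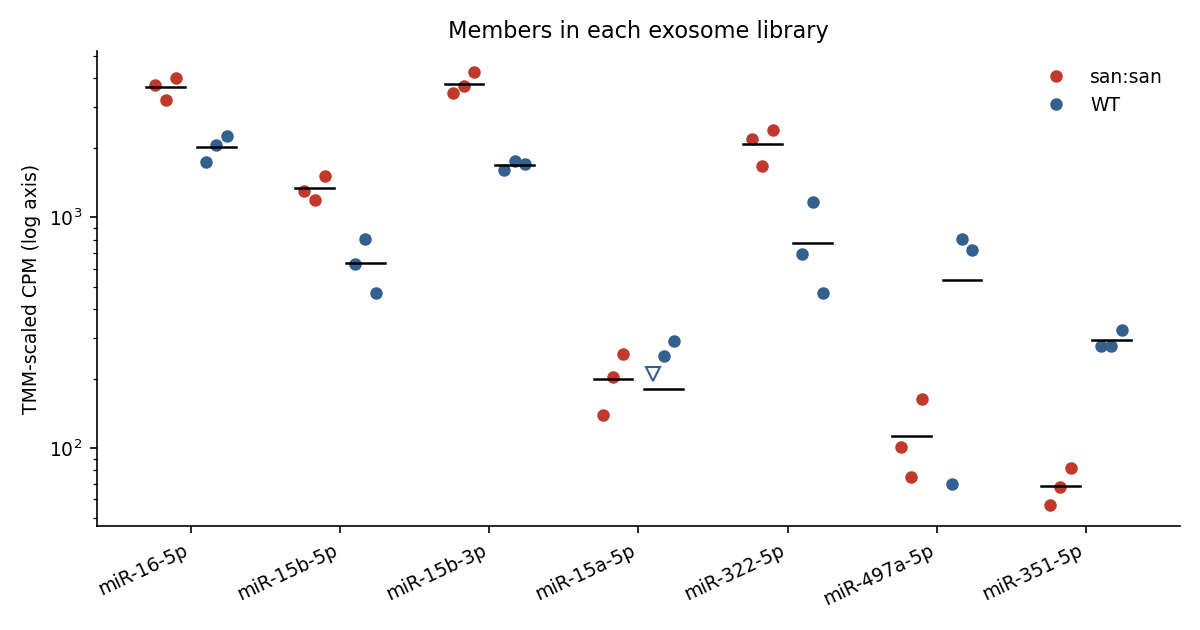
TMM-scaled CPM (log axis) of the 7 members in each library, with san:san in red to the left and WT in blue to the right, black bars for the means of 3 libraries, and an open triangle at 209 CPM, the limit of 3 counts, for miR-15a-5p in the WT library with 0 counts. The genotypes do not overlap for miR-16-5p, both miR-15b arms and miR-322-5p, all higher in san:san, or for miR-351-5p, lower in san:san, while miR-15a-5p and miR-497a-5p overlap.

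miR-16-5p had 597, 431 and 393 counts in san:san, against 25, 74 and 62 in WT. After scaling these were 3760, 3240 and 4030 CPM in san:san and 1740, 2050 and 2250 CPM in WT. Every san:san library lay above every WT library, as for 39.8% of the tested miRNAs. The means were 3680 ± 399 CPM in san:san and 2010 ± 256 CPM in WT (SD, n = 3 each), a 1.80-fold difference (log2 0.85 ± 0.20, SE, edgeR adjusted p = 0.00231). Ranked by scaled level among the 707 miRNAs, miR-16-5p stood at position 45 in san:san and 60 in WT.

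This call depended on the scaling. With total counts, miR-16-5p stood at log2 0.26 with an edgeR adjusted p of 0.316, and its values overlapped between genotypes, at 3000 ± 281 CPM in san:san and 2470 ± 428 CPM in WT (SD, n = 3 each). The same change of scaling moved the median of all tested miRNAs to -0.29. The 3 tested miRNAs outside the family lists whose scaled log2 levels followed miR-16-5p most closely over the 6 libraries were miR-376c-5p (Pearson r = 0.989), the red-cell miRNA miR-451a (0.988) and miR-144-5p (0.982), which is encoded beside miR-451a. These r values are a description: they are carried by the genotype difference and share the libraries and their scaling. miR-451a averaged 52200 ± 9600 CPM in san:san and 13300 ± 3330 CPM in WT (SD, n = 3 each), a 3.91-fold difference against 1.80-fold for miR-16-5p.

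miR-15b-5p, transcribed with miR-16-2, had 207, 158 and 148 counts in san:san, against 9, 29 and 13 in WT. Scaled, it was at 1310, 1190 and 1520 CPM in san:san and 626, 805 and 471 CPM in WT, again with no overlap. The means of 1340 ± 166 CPM in san:san and 634 ± 167 CPM in WT (SD, n = 3 each) differed 2.06-fold (log2 1.04 ± 0.27, SE, edgeR adjusted p = 0.00336). With total counts this call too was lost (log2 0.45, edgeR adjusted p = 0.159), and the values of the genotypes overlapped.

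The other arm of the same hairpin, miR-15b-3p, was more abundant than miR-15b-5p in all 6 libraries, although the 5p arm is the one with the family seed. It had 547, 493 and 415 counts in san:san and 23, 63 and 47 in WT, or 3450, 3710 and 4250 CPM in san:san against 1600, 1750 and 1700 CPM in WT. The WT libraries lay close together and below all san:san libraries. The means of 3800 ± 409 CPM in san:san and 1680 ± 76.3 CPM in WT (SD, n = 3 each) differed 2.24-fold (log2 1.16 ± 0.20, SE, edgeR adjusted p = 1.95e-04). This call held with total counts, at log2 0.57 with an adjusted p of 0.0281.

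The 3p arm made up 72.5%, 75.7% and 73.7% of the miR-15b counts in san:san and 71.9%, 68.5% and 78.3% in WT. The 95% Wilson intervals were wide in WT, from 54.6% to 84.4% in the shallowest library, and narrow in san:san, from 69.3% to 75.6% in the deepest. Such intervals cover counting error only. The balance of the arms was compared across the 41 hairpins for which both genotypes had 10 or more counts of both arms. The log2 ratio of the 5p to the 3p arm of miR-15b differed between san:san and WT by -0.07 ± 0.33 (SE, limma adjusted p = 0.854), whereas 34.1% of these hairpins passed in either direction. With that error, a shift of the arms well above the SE could be missed. Another of these hairpins, with a similar error, differed by -1.03 ± 0.34 and did not pass (SE, limma adjusted p = 0.0613).

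**Figure D2:**
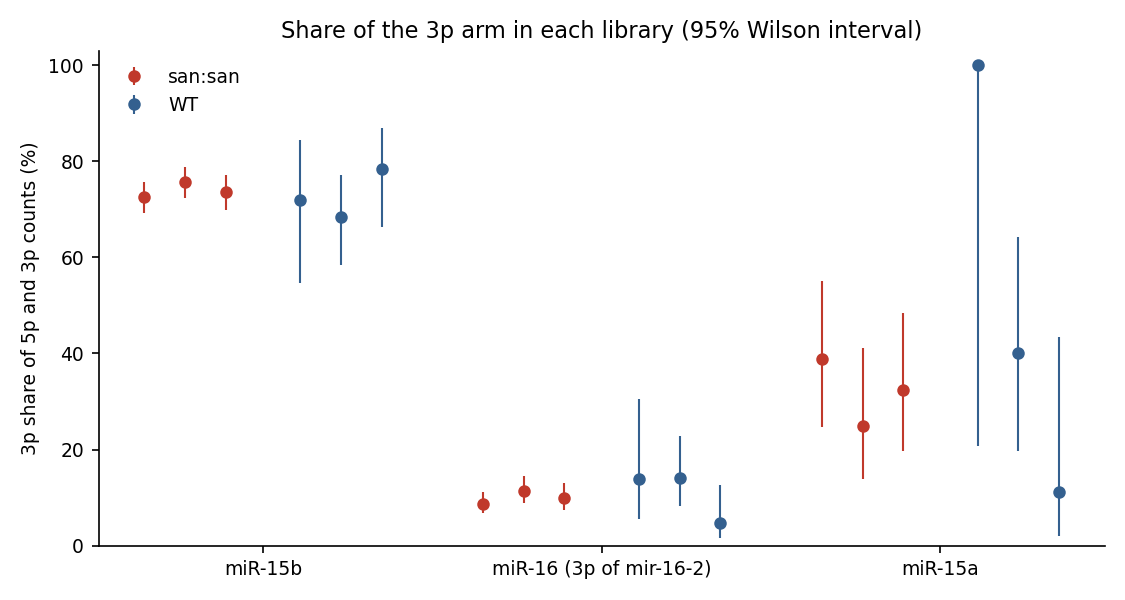
Share of the 3p arm in the 5p and 3p counts of miR-15b, miR-16 (3p arm of the mir-16-2 hairpin) and miR-15a, one point per library with san:san in red to the left and WT in blue to the right, and bars for the 95% Wilson intervals. The miR-15b shares lie between 68.5% and 78.3% in all 6 libraries, the miR-16-2-3p shares between 4.62% and 14.0%, and the WT intervals are the wider ones throughout.

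miR-16-2-3p, whose reads can come only from the copy of miR-16 in Smc4, had 57, 55 and 43 counts in san:san and 4, 12 and 3 in WT. It made up 9.96% ± 1.30 of the counts of miR-16-5p and miR-16-2-3p in san:san and 10.8% ± 5.35 in WT (SD, n = 3 each). Its scaled levels of 405 ± 41.3 CPM in san:san and 240 ± 117 CPM in WT did not overlap but did not pass the test (log2 0.73 ± 0.40, edgeR adjusted p = 0.126). miR-16-1-3p, from the copy at Dleu2, had 2, 2 and 5 counts in san:san and 0 in each WT library. A count of 0 there allows up to 83.3 to 209 CPM, above the 12.6 to 51.2 CPM seen in san:san, so a difference was not detectable at this depth.

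miR-15a-5p, transcribed with miR-16-1, was the scarcest of the miR-15 and miR-16 members. It had 22, 27 and 25 counts in san:san and 0, 9 and 8 in WT, or 139, 203 and 256 CPM in san:san against 0, 250 and 290 CPM in WT. The WT library with 0 counts could have held up to 209 CPM, within the san:san values. The groups overlapped, and the fold change did not pass (log2 -0.12 ± 0.57, SE, edgeR adjusted p = 0.856). Its sign was positive in some other fits. The 3p arm, miR-15a-3p, had 14, 9 and 12 counts in san:san and 1, 6 and 1 in WT and was too low to test.

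miR-322-5p had the largest fold change of the tested members that carry the seed, although its ratio to miR-16-5p did not separate the genotypes. It had 348, 222 and 234 counts in san:san, against 10, 42 and 13 in WT. Scaled, these were 2190, 1670 and 2400 CPM in san:san and 695, 1170 and 471 CPM in WT. On this scale the san:san libraries all exceeded the highest WT library, as for 39.8% of the tested miRNAs. The means of 2090 ± 375 CPM in san:san and 777 ± 355 CPM in WT (SD, n = 3 each) differed 2.57-fold (log2 1.36 ± 0.30, SE, edgeR adjusted p = 0.00136). With total counts it was log2 0.77 with an edgeR adjusted p of 0.0421, and its values overlapped between genotypes. They were then 1700 ± 278 CPM in san:san and 952 ± 447 CPM in WT (SD, n = 3 each). The 3 tested miRNAs outside the family lists closest to its levels over the 6 libraries were miR-128-3p (Pearson r = 0.985), miR-331-3p (0.973) and miR-654-3p (0.956), again as a description only.

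**Figure D3:**
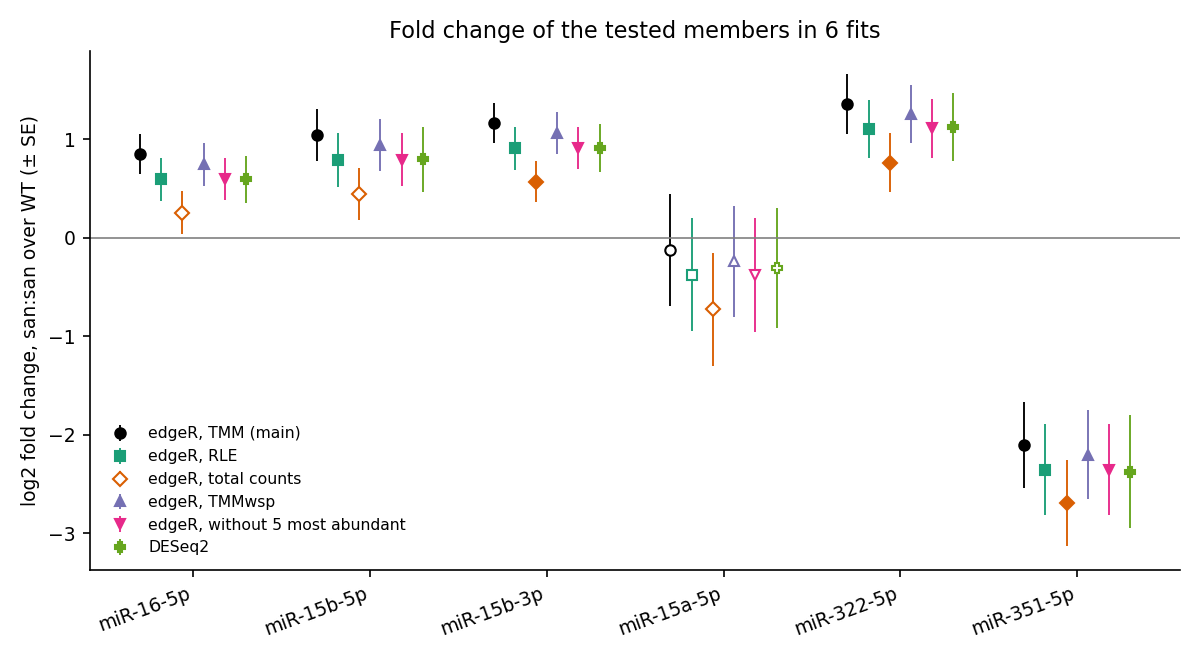
Log2 fold change of the 6 tested members, san:san over WT, with bars for the SE, in the TMM fit and in 5 other fits. Filled symbols have an adjusted p under 0.05. miR-15b-3p, miR-322-5p and miR-351-5p are filled in all 6 fits, miR-16-5p and miR-15b-5p are open with total counts, and miR-15a-5p is open in all. miR-351-5p entered each of these fits through the WT libraries alone, so its filled symbols add no support.

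The neighbour miR-351-5p moved the other way. It had 9, 9 and 8 counts in san:san and 4, 10 and 9 in WT. Since the san:san libraries were several times deeper, these near-equal counts became 56.8, 67.7 and 81.9 CPM in san:san and 278, 278 and 326 CPM in WT. Every san:san value was below every WT value, as for 31.1% of the tested miRNAs. The means were 68.8 ± 12.6 CPM in san:san and 294 ± 27.8 CPM in WT (SD, n = 3 each), a 4.30-fold lower level in san:san (log2 -2.10 ± 0.44, SE, edgeR adjusted p = 8.07e-04). That fit tested the row only because it passed the filter through the WT libraries, so its adjusted p and the lack of overlap add no support. Fitted without the filter it was at log2 -1.96 ± 0.57 (SE, edgeR adjusted p = 0.00274). There 14.9% of 707 rows were lower, beside 29.5% of the 254 rows in the filtered fit.

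The opposite arm of that hairpin, miR-351-3p, was lower as well. It had 4, 0 and 4 counts in san:san and 3, 11 and 8 in WT, and it also passed the filter through the WT libraries alone. Its level of 22.1 ± 20.7 CPM in san:san and 268 ± 51.9 CPM in WT (SD, n = 3 each) gave a log2 fold change of -3.65 ± 0.64 (SE, edgeR adjusted p = 2.15e-04), with so few reads that the size is uncertain. It was -3.06 without san:san replicate 2, which holds the 0, and -4.24 without san:san replicate 3 and also with total counts.

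The pair was also compared within each library. The log2 ratio of miR-351-5p to miR-322-5p was -4.98, -4.37 and -4.64 in san:san and -1.29, -2.04 and -0.52 in WT, where a ratio does not depend on the scaling between libraries. The genotypes did not overlap, and the difference was -3.38. The two-sided exact permutation test gave p = 0.1, the smallest that 3 against 3 allows, or 0.3 adjusted over the 6 ratios compared. No ratio could be called by this test.

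The rest of the X-linked cluster had few counts in either genotype. miR-322-3p had 3, 1 and 0 counts in san:san and 0, 2 and 2 in WT. miR-503-5p, whose seed differs from that of the family in its last base, had 3, 3 and 0 counts in san:san and 2, 3 and 1 in WT. miR-542-3p had 11, 8 and 3 counts in san:san and 2, 2 and 0 in WT, and miR-450a-5p had 3, 8 and 1 in san:san and 0, 2 and 2 in WT. Of the 19 names listed as other arms or cluster neighbours of the members, 14 had a row in the table and 2 were deep enough to test, namely miR-351-3p, which was lower, and miR-16-2-3p, which did not pass. The 14 rows held 286 counts over san:san and 80 over WT.

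Both other tested miRNAs with the seed of miR-351-5p were far more abundant. miR-125a-5p was at 4700 ± 499 CPM in san:san and 4070 ± 50.8 CPM in WT (SD, n = 3 each) and did not pass (log2 0.21, edgeR adjusted p = 0.337), and its sign turned with other scalings. miR-125b-5p was lower, at 1760 ± 56.1 CPM in san:san and 6530 ± 1170 CPM in WT (log2 -1.90 ± 0.20, adjusted p = 2.32e-06).

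miR-497a-5p, the member from chromosome 11, had 16, 10 and 16 counts in san:san and 1, 29 and 20 in WT. Scaled, it was at 101, 75.2 and 164 CPM in san:san, while the WT libraries were split between 69.5 CPM in replicate 1 and 805 and 724 CPM in the other replicates. The genotypes overlapped because of that WT library, the shallowest of all, where the value rests on 1 count. The row missed the filter because 2 of 6 libraries, both WT, reached 129 CPM. Fitted without the filter it was lower in san:san (log2 -2.33 ± 0.42, SE, edgeR adjusted p = 3.96e-07). In that fit 14.9% of 707 rows were lower, beside 29.5% of the 254 rows that passed the filter in the main fit. Without WT replicate 1 the fold change was log2 -2.89 (adjusted p = 2.25e-06), and without WT replicate 2 it was -2.19 (0.0220). miR-195a-5p, encoded beside it, had 1 count over san:san and 0 over WT, and miR-195a-3p had 3 over san:san and 2 over WT.

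Among the 5 members that carry the seed, miR-16-5p made up 50.2%, 50.8% and 48.2% of the counts in san:san and 55.6%, 40.4% and 53.4% in WT. miR-322-5p made up 28.0% ± 1.63 in san:san and 18.8% ± 6.58 in WT, with no overlap (SD, n = 3 each, two-sided exact permutation p = 0.1). miR-497a-5p made up 1.49% ± 0.412 in san:san and 11.8% ± 8.30 in WT (exact permutation p = 0.1). miR-15b-5p held 18.1% ± 0.623 in san:san and 15.7% ± 4.4 in WT, with overlap (exact permutation p = 0.5). miR-15a-5p held 2.70% ± 0.739 in san:san and 3.94% ± 3.55 in WT (exact permutation p = 0.6). Shares within the family do not depend on scaling, but they sum to a fixed total, so a smaller share of one member raises the others.

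**Figure D4:**
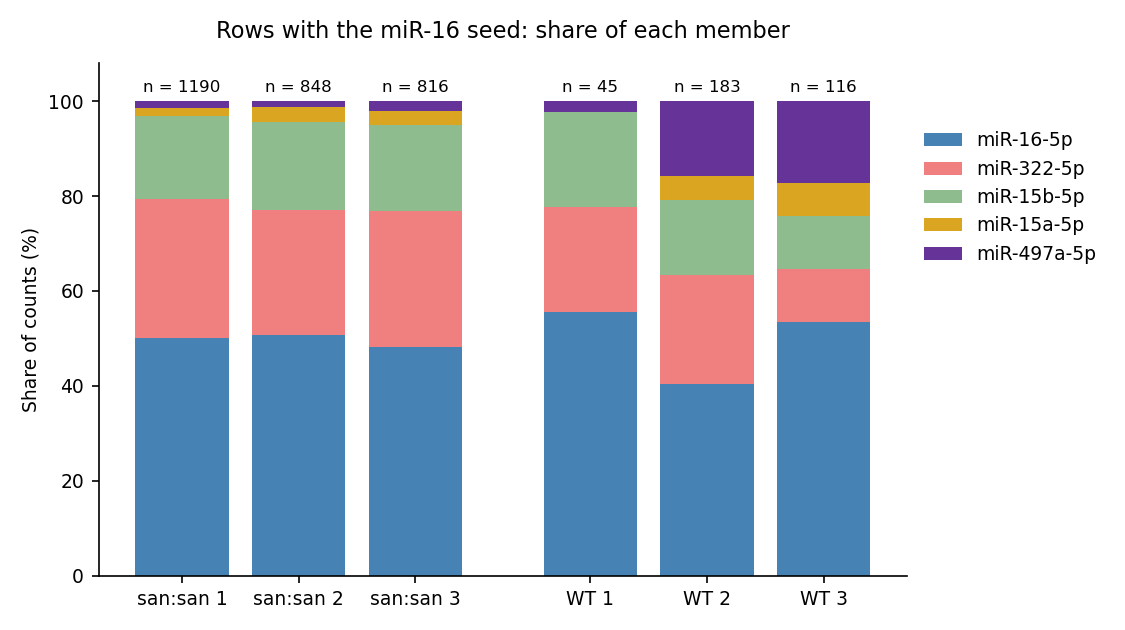
Share of each of the 5 members with the seed AGCAGCA in their summed counts, one bar per library with the summed counts above it, san:san on the left and WT on the right. The 3 san:san bars are nearly the same, with miR-16-5p between 48.2% and 50.8%, whereas miR-497a-5p takes 15.8% and 17.2% of WT replicates 2 and 3 and 2.22% of WT replicate 1.

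The exact permutation test of 3 against 3 libraries cannot give a p under 0.1, so no ratio to miR-16-5p could be called. The log2 ratio of miR-322-5p to miR-16-5p averaged -0.82 ± 0.11 in san:san and -1.45 ± 0.72 in WT, with overlap (SD, n = 3 each, exact permutation p = 0.2, adjusted 0.4). The ratio of miR-15b-5p to miR-16-5p averaged -1.45 ± 0.06 in san:san and -1.68 ± 0.48 in WT (exact permutation p = 0.8). That of miR-15b-3p to miR-15b-5p was 1.5 ± 0.12 in san:san and 1.43 ± 0.37 in WT (exact permutation p = 0.8), and that of miR-15a-5p to miR-16-5p was -4.15 ± 0.42 in san:san and -4.47 ± 2.62 in WT (exact permutation p = 1). The ratio of miR-497a-5p to miR-16-5p averaged -4.92 ± 0.37 in san:san and -2.48 ± 1.73 in WT (exact permutation p = 0.1, adjusted 0.3). Its difference of -2.44 was -3.44 without WT replicate 1 and -1.87 without WT replicate 2. Since the test could call no ratio with 3 libraries a genotype, the lack of a call does not show that the members moved by the same factor.

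As a fraction of the whole library, the 6 rows from the hairpins of the seed family made up 0.934%, 0.835% and 0.976% of counts in san:san and 0.546%, 0.852% and 0.749% in WT. The means of 0.915% ± 0.0725 in san:san and 0.716% ± 0.155 in WT overlapped (SD, n = 3 each, two-sided exact permutation p = 0.2). Their difference of 0.199 percentage points was 0.115 without WT replicate 1. It was 0.24 with rows of identical counts merged and 0.588 with the 5 most abundant miRNAs left out of the total, and under both the genotypes did not overlap (exact permutation p = 0.1, the smallest possible).

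By scaled level, the order of the members in san:san was miR-15b-3p and miR-16-5p, which did not differ beyond their spread, then miR-322-5p and miR-15b-5p, whose values did not overlap, then miR-15a-5p, miR-497a-5p and miR-351-5p, where neighbours overlapped. In WT it was miR-16-5p and miR-15b-3p, which overlapped, then miR-322-5p, miR-15b-5p and miR-497a-5p within one another's spread, then miR-351-5p and miR-15a-5p, also overlapping. The mature sequences are 22 bases long, or 24 for miR-351-5p, so CPM were compared without a length correction. Ligation and amplification favour some sequences over others, so levels of different miRNAs are approximate.

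The related miRNAs miR-103-3p and miR-107-3p carry the seed shifted by 1 base (GCAGCAU) and have metabolic and cell-cycle targets in part shared with the family. miR-103-3p averaged 1750 ± 170 CPM in san:san and 1330 ± 227 CPM in WT (SD, n = 3 each) and did not pass (log2 0.38 ± 0.22, edgeR adjusted p = 0.154). miR-107-3p averaged 888 ± 86.2 CPM in san:san and 984 ± 74.3 CPM in WT (log2 -0.17 ± 0.23, adjusted p = 0.525), and was lower with total counts (log2 -0.76, adjusted p = 0.0124).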

How the data were processed

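RNA from exosomes of macrophage supernatants was harvested with Trizol and made into miRNA libraries by Illumina protocols, per the labels' protocols, which also name an mRNA kit. The authors deposited whole-number counts per mature miRNA. Per the submitters' processing notes the build was mm9. The aligner is not given in the sources used here, nor are the trimming and the annotation release. The authors also deposited scaled values of the same counts, which were not used. Groups and replicate numbers came from the sample titles. The number of columns from other samples was 0.

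The counts of the 6 libraries were tested with edgeR 4.0.16 in R 4.3.3: filterByExpr at a minimum count of 10, TMM, robust quasi-likelihood, no term but genotype, and p-values adjusted by Benjamini-Hochberg over the 254 miRNAs kept, which held 98.2% to 99.3% of counts. SEs are the log2 fold change over the root of F. Arm ratios were tested with limma 3.58.1, and ratios and shares with two-sided exact permutation tests. Ratios carry a pseudocount in proportion to library size with a mean of 1. RefSeq sequences matched 573 of the 707 names. The fits were tested on simulated counts. Members and lists were chosen with earlier results of these data known. The named miRNAs are the members, their other arms and cluster neighbours, rows sharing a seed with miR-16-5p or miR-351-5p, miR-103-3p with miR-107-3p, the markers, and the 3 rows most like miR-16-5p and miR-322-5p. The alternatives were RLE, TMMwsp, total counts, totals that leave out the 5 most abundant miRNAs, no filter, a stricter filter, DESeq2 1.42.0, limma-voom, non-robust dispersions, merged identical rows, a replicate block and leaving out each library.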

Additional observations from a re-analysis of the deposited data

How the results depend on the processing

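The WT libraries limit these results, since 1 count there is worth up to 69.5 CPM and miR-15a-5p, miR-497a-5p and miR-351-5p rest on 17, 50 and 23 WT counts. Of all tested miRNAs 163 passed, 88 higher and 75 lower in san:san. The split was 64 and 82 in DESeq2. With total counts it was 49 against 101, which left 3 members past the threshold, 2 of them higher. With at least 5 counts in every library 98 of 146 passed, 54 higher and 44 lower, with 4 members higher and 0 lower, because miR-351-5p was no longer tested. Without the filter 207 of 707 passed, with 2 members lower since miR-497a-5p was then tested. Leaving out 1 library gave 133 to 175 calls among 199 to 293 tested, or 45.9% to 69.8%, 68 to 90 higher and 62 to 85 lower. In each of these fits miR-497a-5p was tested as well and 6 members passed, 4 higher and 2 lower, while miR-15a-5p was not tested without any 1 of the san:san libraries. In the fits without a san:san library, miR-497a-5p passed the filter through the WT libraries alone. A row that enters in this way is already lower in san:san than in those WT libraries by total counts, so its calls there add no support. The calls of miR-15b-3p and miR-322-5p held in all 18 fits, those of miR-16-5p and miR-15b-5p in 17, and that of miR-351-5p in all 17 that tested it. In the fits that used the main filter, miR-351-5p entered through the WT libraries alone, so its calls there add no support. The replicate number as a block gave 161 calls and the same count of 5 members. Same-numbered libraries correlated at 0.103, -0.0795 and 0.258 in their deviations from the genotype means, and 3 of 6 libraries correlated best with their own number, so the numbers were not taken as pairs. Signs turned only for values that did not pass: miR-15a-5p was at 0 without the filter, 0.20 with limma-voom, 0.05 with the replicate block, and between -0.55 and 0.17 with a library left out, positive without WT replicate 3. miR-125a-5p was at -0.04 with RLE, DESeq2 and totals that leave out the 5 most abundant miRNAs and -0.37 with total counts, and miR-103-3p was at -0.21 with total counts. The miR-15b arm ratio ranged from -0.28 to 0.09 with a library left out. The difference in the family's share of counts ranged from 0.115 to 0.267 percentage points with a library left out, and was 0.588 without the 5 most abundant miRNAs in the denominator (exact permutation p = 0.1). Log2 ratios with a library left out ranged from -1.19 to 1.10 for miR-15a-5p, -0.05 to 0.39 for miR-15b-5p, 0.24 to 0.95 for miR-322-5p and -3.44 to -1.87 for miR-497a-5p, each over miR-16-5p, from -3.76 to -3.0 for miR-351-5p over miR-322-5p and from -0.09 to 0.28 for miR-15b-3p over miR-15b-5p. The cause of these shifts was not tested. Without a pseudocount the ratio of miR-497a-5p to miR-16-5p overlapped between genotypes (exact permutation p = 0.2), and the ratio of miR-15a-5p could not be formed because a WT library had 0 counts.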
